A study of Saccharomyces cerevisiae with 15 samples.

Results

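Small-subunit ribosomal protein (RP) genes that exist as an A and a B copy were examined here as 16 pairs. They include RPS4, RPS6, RPS7, RPS9, RPS10, RPS18, RPS19, RPS21, RPS24, RPS25, RPS26, RPS27, RPS29 and RPS30. The members are the 32 intergenic regions that the 5′ end of one of these genes faces. Each array region is named by the reading frame on its lower-coordinate side, so the facing genes follow from gene order. Every member had 1 region, and no region was faced by 2 members. The 32 regions belong to 6803 on the array, of which 133 face any cytosolic RP gene.

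The regions were measured by chromatin immunoprecipitation and hybridisation to two-colour spotted arrays (ChIP-chip) in budding yeast of the W303 background. In one strain Fhl1 carried a myc epitope tag (W303+FHL1-13myc-HIS3MX6), and in another Ifh1 did (W303+IFH1-13myc-TRP1MX6). Chromatin precipitated with a myc antibody from a tagged strain was set on each array against chromatin from untagged W303. Log-phase cells in rich medium at 30 °C were left untreated or given rapamycin at 200 ng/mL, and crosslinking took 30 min. There were 3 arrays for Fhl1 untreated, 5 for Fhl1 rapamycin, 4 for Ifh1 untreated and 3 for Ifh1 rapamycin. The labels call them biological replicates, and do not say how many transformants stand behind each tagged strain or whether untagged cells set against rapamycin samples had the drug too. Their number limits the precision, and arrays may share a wild-type preparation.

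Fhl1 is a forkhead-type DNA-binding protein found at most RP promoters. Ifh1 is a coactivator that reaches those promoters by binding Fhl1, and the TOR complex 1 kinase, which rapamycin inhibits, keeps it there in growing cells. Many yeast RP genes have an A and a B copy left from an ancient genome duplication, which encode nearly the same protein.

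Values are log2 ratios centred on the median of each array. The deposited ratios did not share one direction: large-subunit RP regions lay above the array median on 5 and below it on 7 of the 12 arrays outside Ifh1 rapamycin, and the labels mention dye swaps without naming the arrays. Each array was therefore turned so that 80 regions facing a large-subunit RP gene and no member had a positive median. The size of that median was 0.63 to 1.69 on the 12 arrays and 0.01 to 0.08 on the Ifh1 rapamycin arrays, whose direction is therefore not settled. The members took no part in turning the arrays, and their median had the same side as the large-subunit regions on 12 of 12 arrays. A positive value is read below as more tagged-strain DNA, a direction that rests on the RP genes themselves. The arrays of each group fell into more than 1 of 3 clusters by the absolute correlation of their signal outside RP genes, and values within these clusters stand beside the comparisons. Clusters by signed correlation of the deposited values, added after seeing the data, are named as such.

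Regions upstream of the duplicated small-subunit genes were high with Fhl1 in both conditions and with Ifh1 in untreated cells, and lay around 0 with Ifh1 after rapamycin. With Fhl1 untreated, the member median was 1.54, 1.31 and 0.80 on replicates 1 to 3. It was 1.21, 1.23, 1.04, 1.24 and 0.75 on Fhl1 rapamycin replicates 1 to 5. For Ifh1 untreated it was 0.85, 0.80, 0.91 and 0.99 on replicates 1 to 4. The 3 Ifh1 rapamycin arrays, at 0.04, 0.00 and 0.14, lay below all 12 others. As group values the median was 1.22 ± 0.38 (SD, n = 3), 1.09 ± 0.21 (n = 5), 0.89 ± 0.08 (n = 4) and 0.06 ± 0.07 (n = 3) in this order. The 101 regions facing other RP genes gave 1.18 ± 0.41, 1.09 ± 0.35, 0.89 ± 0.10 and 0.04 ± 0.03, so the members did not stand apart from them by more than the spread between arrays. These 101 hold the 80 large-subunit regions used for turning. Their side of 0 was thus largely set by the turning, here and in the counts below. The 32 regions on the 3′ side of the same genes gave 0.14, 0.08, 0.13 and -0.07.

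**Figure D1:**
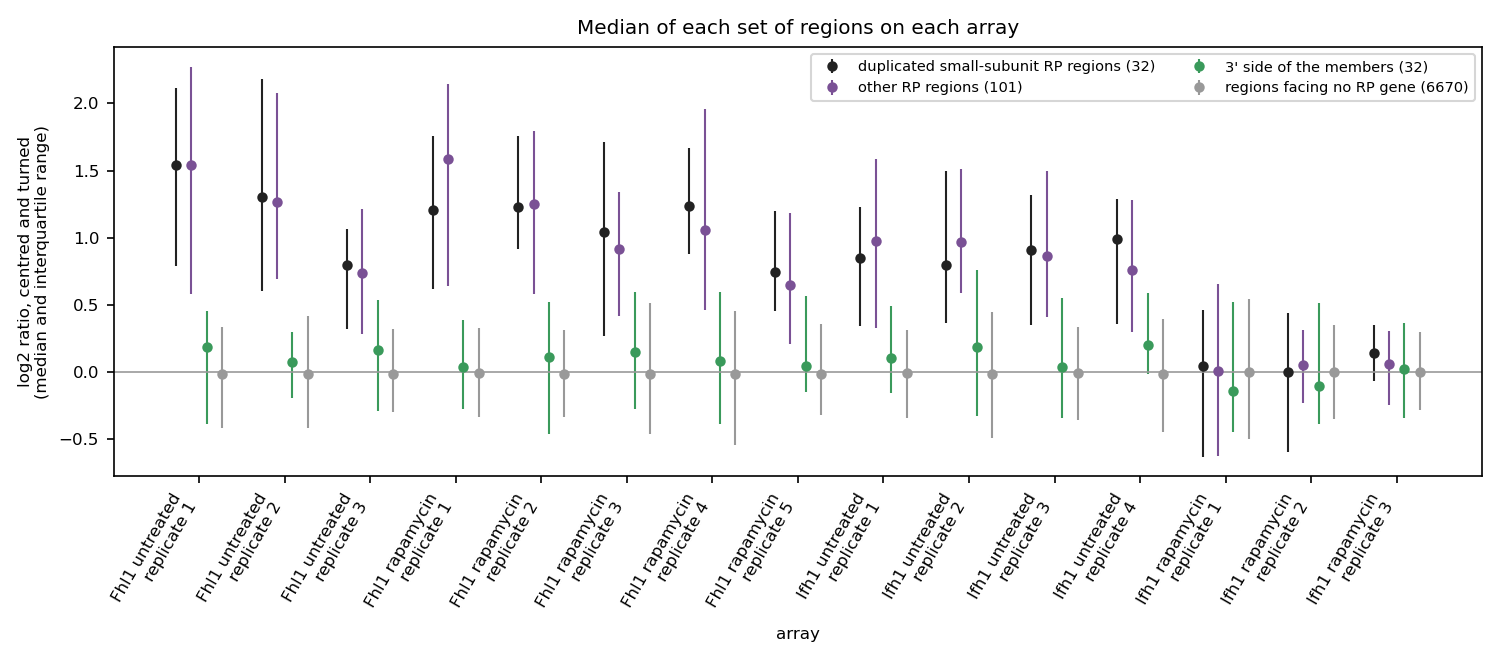
Median (points) and interquartile range (bars) of the centred, turned log2 ratio on each of the 15 arrays for 4 sets of regions: the 32 duplicated small-subunit RP regions, 101 other RP regions, 32 regions on the 3′ side of the members and 6670 regions facing no RP gene. On 12 arrays both RP sets lie above the other sets, and on the 3 Ifh1 rapamycin arrays all 4 medians lie near 0.

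The members spread widely within each group. Their group means ran from -0.10 to 2.56 with Fhl1 untreated (median 1.28, interquartile range 1.08), and from 0.21 to 2.05 with Fhl1 rapamycin (median 1.07, interquartile range 0.87). With Ifh1 untreated they ran from -0.10 to 1.90 (median 0.83, interquartile range 0.79). With Ifh1 rapamycin they ran from -0.71 to 0.62, with a median of 0.00 and an interquartile range of 0.43. Of the 32 members, 18 were above 0 on all 12 arrays outside Ifh1 rapamycin, 6 on 11, 3 on 10, 2 on 9 and 3 on 8. By group mean, 31, 32 and 30 members were above 0 with Fhl1 untreated, Fhl1 rapamycin and Ifh1 untreated. So were 91, 93 and 94 of the 101 other RP regions, and 3117, 3318 and 3111 of the 6670 regions facing no RP gene.

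By the mean of the 3 groups other than Ifh1 rapamycin, the 5 highest members were B copies, led by RPS21B (1.98), RPS19B (1.91), RPS24B (1.87) and RPS27B (1.83). Among the 5 lowest were RPS21A (0.12), RPS9A (0.22) and RPS10B (0.34). Both ends of the order thus held a copy of RPS21. Neighbours in this order differed by less than the SD of either over the 12 arrays. The median was 1.30 for the 16 regions faced by a member alone, with a range of 0.12 to 1.91. It was 0.83 for the 16 that lie between divergent genes, with a range of 0.22 to 1.98. The ranges thus overlapped almost wholly, and the difference between the medians was not tested.

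**Figure D2:**
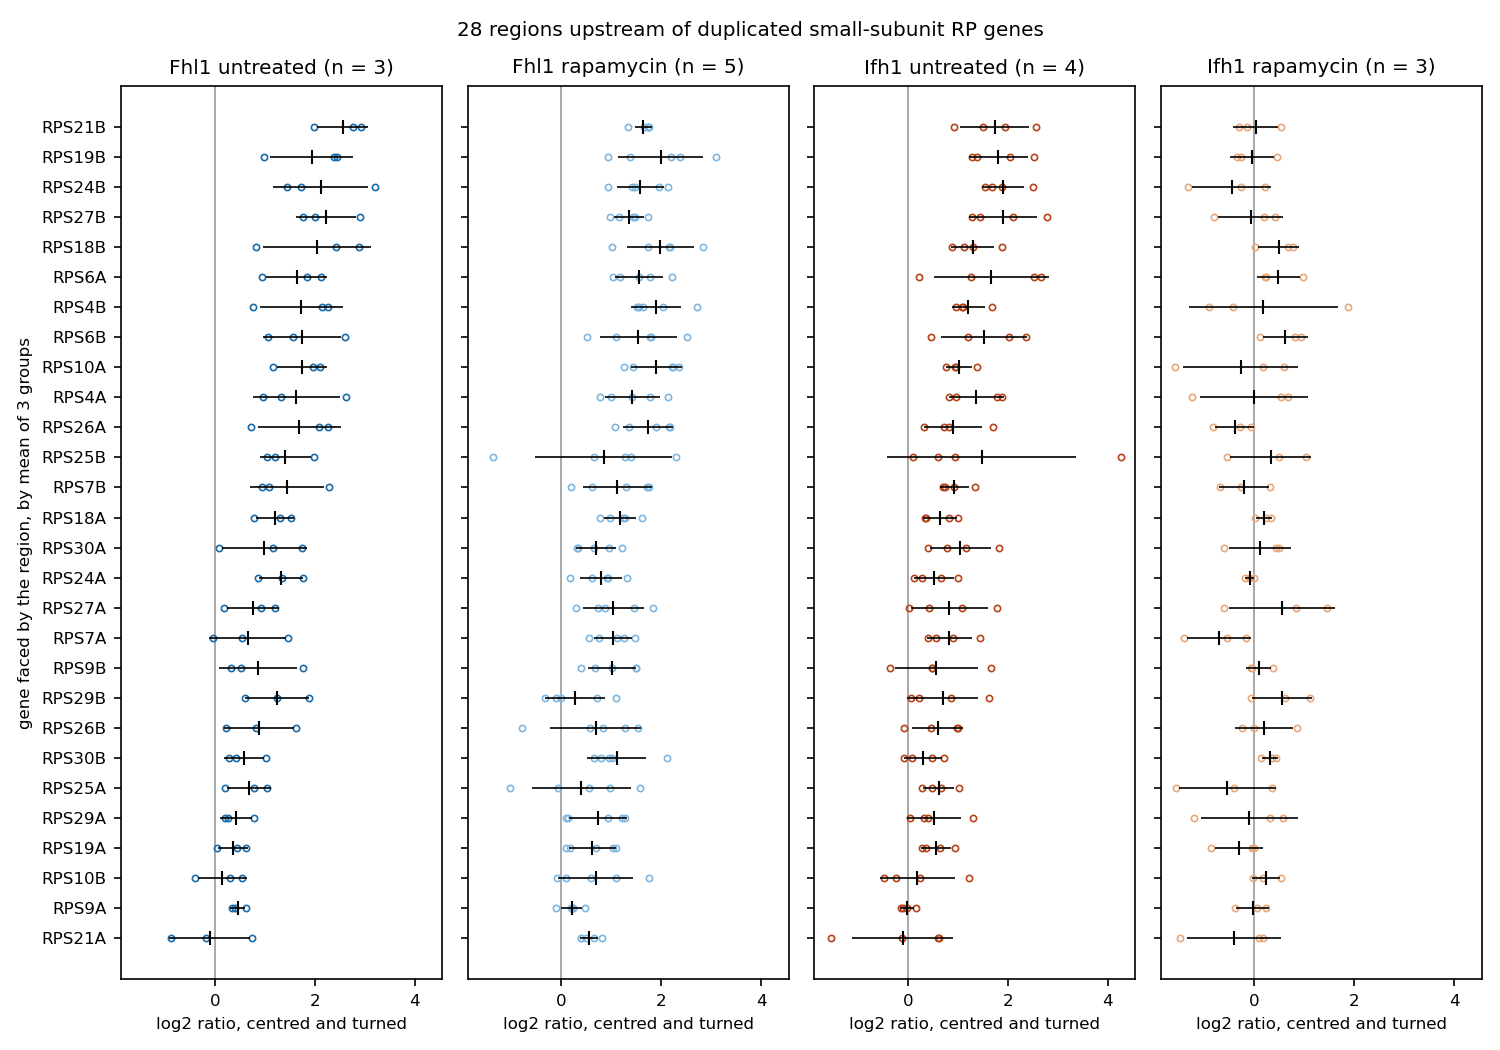
Centred, turned log2 ratio (x axis) of 28 of the 32 regions (rows, ordered by the mean of the 3 groups other than Ifh1 rapamycin) in the 4 groups. Open points are arrays, the vertical tick is the group mean and the bar the SD. RPS21B, RPS19B, RPS24B and RPS27B head the order, and on Ifh1 rapamycin arrays the members lie on both sides of 0.

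Calls were made with limma across all 6803 regions, at a Benjamini-Hochberg adjusted p under 0.05. In the mean of the 3 groups, 21 of the 32 members were higher than the array median, against 1.41% of all regions, 67 of the 101 other RP regions and 1 of the 32 regions on the 3′ side. With Fhl1 untreated, 9 members were higher (0.632% of all regions; 34 of 101 other RP regions). With Fhl1 rapamycin there were 15 (0.926%; 47 of 101). With Ifh1 untreated there were 5 (0.353%; 19 of 101). None was called with Ifh1 rapamycin (0% of all regions), where 1 member had an unadjusted p under 0.05. On simulated data the fit of that group found 20% of changes of 1 log2 unit. The share of members called was close to that of the other RP regions in each group, most of which had served for turning.

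These counts depended on single arrays. The Fhl1 untreated count was 3 without replicate 1 and 1 without replicate 2. The Fhl1 rapamycin count was 9 without replicate 1. Without Ifh1 untreated replicates 1 to 4 in turn, the count in that group was 3, 3, 3 and 2. With array clusters by absolute correlation as a block, the count in the mean of the 3 groups fell from 21 to 7, and with no array turned it was 0.

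RPS19B, RPS21B, RPS24B and RPS27B were called in all 3 groups. RPS6A, RPS10A, RPS18A, RPS18B and RPS26A were called in 2, and 7 members in 1. Such counts are not given here for the other RP regions or for all regions, so they cannot be called particular to the members. The 16 members called in none were not thereby shown to be unbound: for changes of 1 log2 unit, the simulated recovery was 35% with Fhl1 untreated, 55% with Fhl1 rapamycin and 37% with Ifh1 untreated. In 7 pairs (RPS4, RPS6, RPS7, RPS18, RPS24, RPS27 and RPS30) both copies were called in the mean of the 3 groups. This number was 6 to 8 with each array left out, 2 without centring and 0 with clusters by absolute correlation as a block. RPS27A lost its call without any of 8 single arrays, and RPS30B and RPS9B without any of 3. In 7 pairs 1 copy was called, which was the B copy in 5, RPS9, RPS19 and RPS21 among them, and the A copy for RPS10 and RPS26. Neither copy of RPS25 or RPS29 was called. This split of the pairs is not given here for the other RP pairs, so it cannot be called particular to the members. RPS29B was close to the threshold (limma, 0.74, adjusted p = 0.0551). It was called with arrays scaled to one deviation and with arrays weighted. Leaving out Fhl1 untreated replicate 3, Fhl1 rapamycin replicate 3 or Ifh1 untreated replicate 4 also gave the call. RPS26B was called with arrays weighted and without Fhl1 rapamycin replicate 3.

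The level of the A copy did not rise with that of the B copy from pair to pair. Across the 16 pairs, the correlation between the A and B values ran from -0.34 to 0.01 over the 12 arrays outside Ifh1 rapamycin. In the group means it was -0.33 for untreated Fhl1, -0.13 for Fhl1 with rapamycin and -0.12 for untreated Ifh1. These are descriptions over 16 pairs that share their arrays. The median absolute difference between the copies was 0.81, 0.80 and 0.70 in the same order, and 0.32 to 0.45 with Ifh1 rapamycin. In 11 of the 16 pairs the same copy was the higher in each of the 3 groups other than Ifh1 rapamycin. No such count is given here for the other RP pairs, so it cannot be called particular to the members. With Ifh1 rapamycin the same copy was also the higher in 2 to 9 pairs over the 8 ways of turning those arrays, and the correlation there ran from -0.06 to 0.28.

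**Figure D3:**
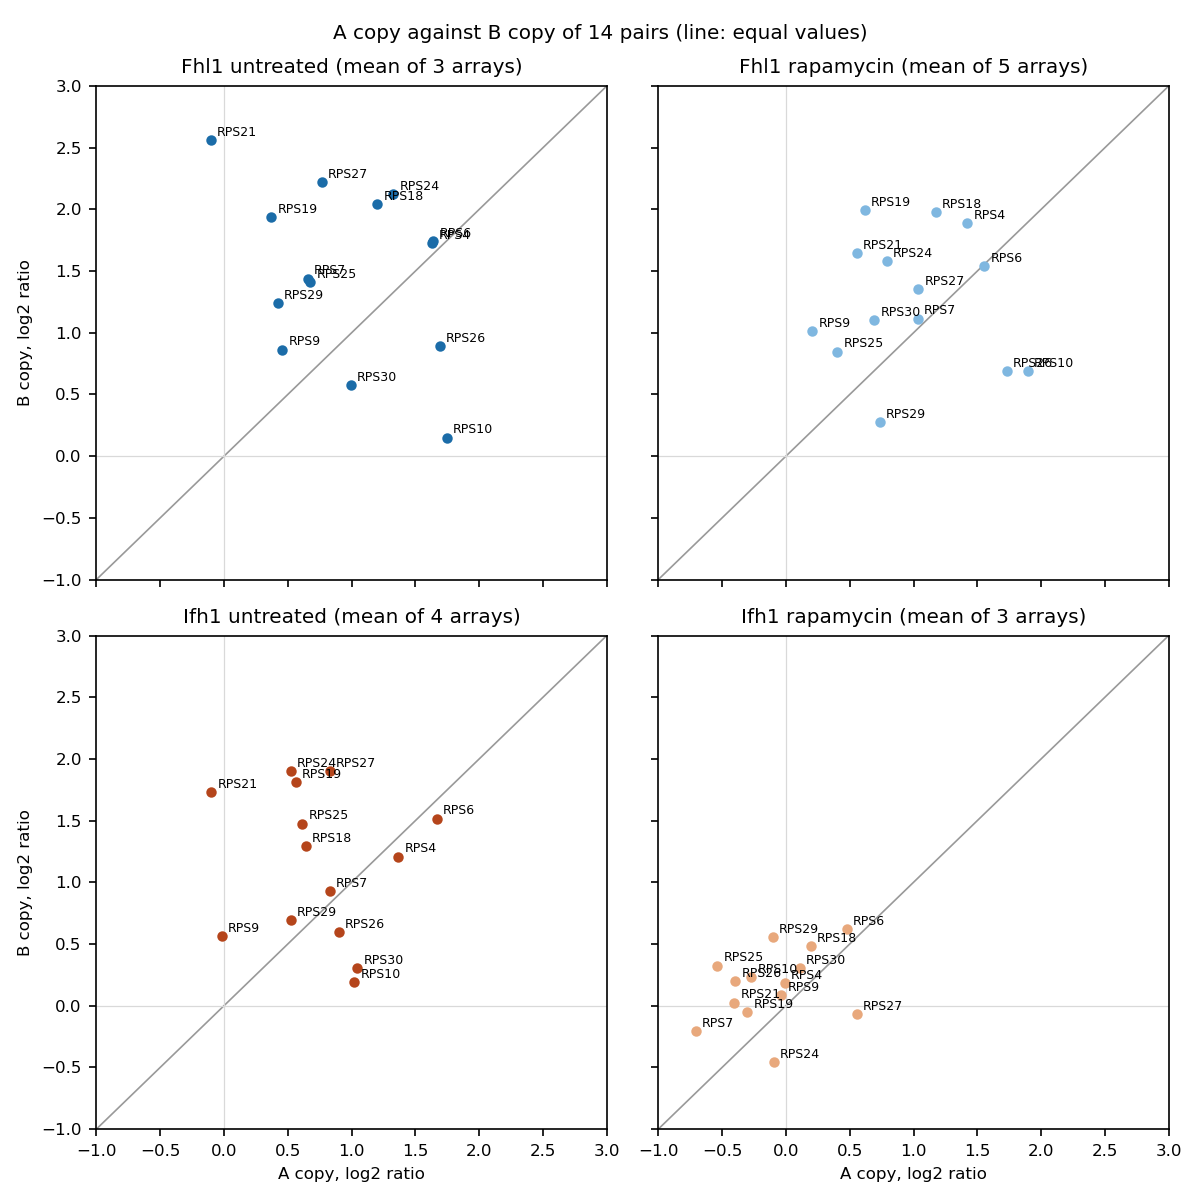
Group mean of the centred, turned log2 ratio of the A copy (x axis) against the B copy (y axis) for 14 of the 16 pairs, 1 panel per group, with a line of equal values. In 3 panels RPS21 and RPS19 lie far above the line and RPS10 below it, and in the Ifh1 rapamycin panel the pairs gather near 0.

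The difference between the copies (A minus B) was tested on the 12 arrays outside Ifh1 rapamycin with an exact sign-flip test over arrays, two-sided. This test takes the 12 arrays as independent, and no version with array clusters is given here. The p-values were adjusted over all 58 RP pairs on the array, and the smallest possible p was 0.000488. Among the members 10 of 16 pairs differed, 8 with the B copy higher and 2 with the A copy higher. Over all RP pairs 67.2% differed, and among the 42 other pairs 29 did, 16 with the A copy and 13 with the B copy higher. The members' share of unequal pairs is thus near the background and says nothing particular about them. Each copy has its own array region, with its own length and neighbours, so a difference between ratios is not a ratio of bound protein.

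**Figure D4:**
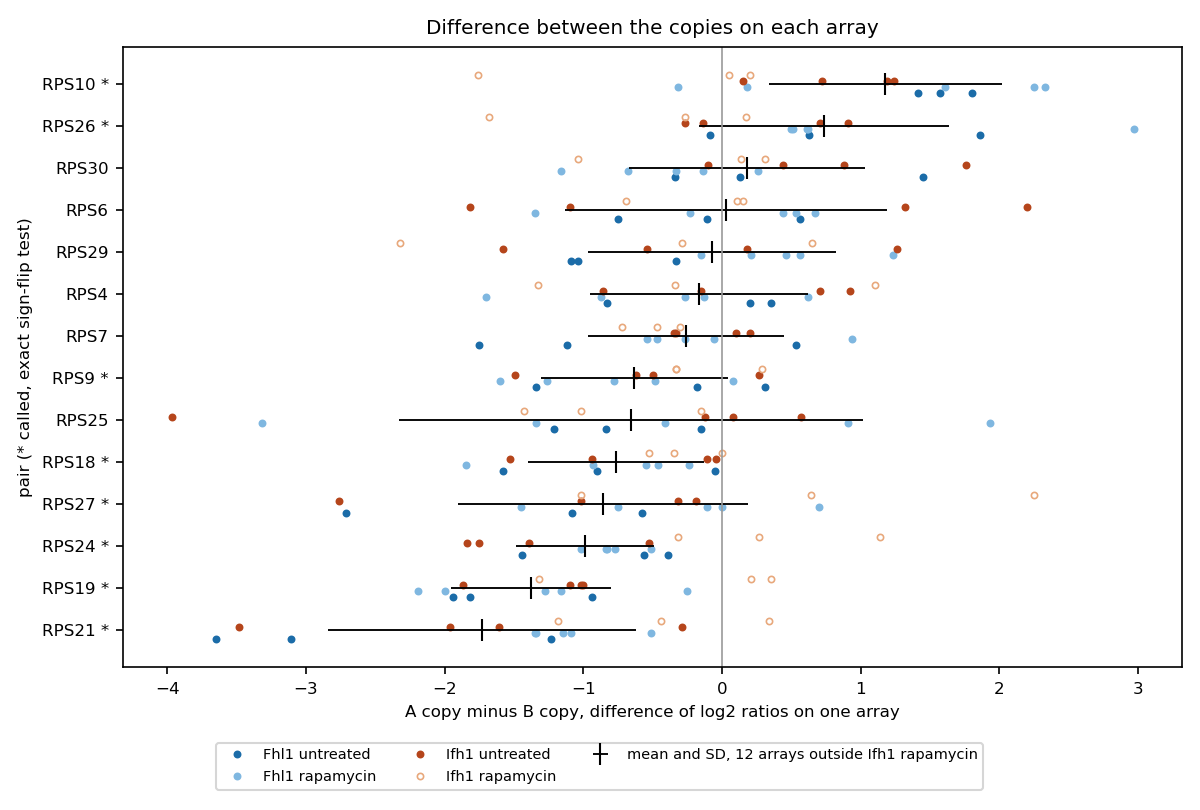
A copy minus B copy in log2 units (x axis) for 14 of the 16 pairs (rows), each point 1 array, filled for the 12 arrays of Fhl1 and untreated Ifh1 and open for Ifh1 rapamycin. Ticks and bars are mean and SD over the 12 arrays, and asterisks mark called pairs. RPS21, RPS19, RPS24 and RPS18 lie below 0 on all 12 arrays.

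Proteins of the subunit's head are encoded by RPS10, RPS18, RPS19, RPS25 and RPS29. The RPS19 protein is needed to mature the small-subunit RNA. RPS19B stood at 2.39, 2.45 and 0.98 with Fhl1 untreated, at 3.09, 2.20, 2.37, 0.93 and 1.37 with Fhl1 rapamycin and at 2.05, 2.53, 1.29 and 1.38 with Ifh1 untreated. RPS19A stood at 0.45, 0.63 and 0.04, at 1.09, 1.04, 0.18, 0.69 and 0.09, and at 0.95, 0.65, 0.29 and 0.36 on the same arrays. The copies overlapped only in Fhl1 rapamycin, through replicate 4 of RPS19B. The difference was -1.38 ± 0.58 (SD, n = 12; exact sign-flip test, adjusted p = 0.00315), with RPS19B higher on 12 of 12 arrays. Both regions are faced by no other gene.

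RPS10 encodes a protein near the entry of the messenger RNA channel, and its copies lay the other way. RPS10A, divergent with YOR292C, stood at 2.11, 1.96 and 1.16 with Fhl1 untreated, at 2.35, 2.23, 2.21, 1.43 and 1.26 with Fhl1 rapamycin and at 0.95, 0.77, 1.38 and 0.97 with Ifh1 untreated. RPS10B, divergent with RRP5, a gene for a ribosome assembly factor, stood at 0.30, 0.55 and -0.40, at 0.10, -0.09, 0.60, 1.75 and 1.09, and at -0.24, -0.47, 1.23 and 0.25. The copies did not overlap with Fhl1 untreated and overlapped in the other groups. RPS10A was higher by 1.18 ± 0.84 (n = 12; exact sign-flip test, adjusted p = 0.00666), on 11 of 12 arrays.

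RPS18 encodes a head protein that contacts the large subunit, and both copies were high. RPS18B stood at 2.42, 2.88 and 0.83 with Fhl1 untreated, at 2.15, 2.17, 1.74, 2.83 and 1.01 with Fhl1 rapamycin and at 1.88, 0.88, 1.30 and 1.12 with Ifh1 untreated. RPS18A, divergent with UTP6, a gene for an assembly factor, stood at 1.53, 1.30 and 0.78, at 1.61, 1.24, 1.28, 0.98 and 0.77, and at 0.35, 0.83, 0.36 and 1.01. The ranges overlapped in every group, yet RPS18B was the higher on 12 of 12 arrays. The difference was -0.76 ± 0.63 (n = 12; exact sign-flip test, adjusted p = 0.00315).

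RPS29 encodes a small zinc-binding head protein. RPS29A, divergent with REH1, stood at 0.79, 0.20 and 0.27 with Fhl1 untreated, at 0.10, 1.21, 0.14, 0.94 and 1.28 with Fhl1 rapamycin and at 0.32, 0.41, 0.04 and 1.31 with Ifh1 untreated. RPS29B, divergent with TSR1, stood at 1.88, 1.24 and 0.60, at -0.11, -0.01, -0.32, 1.09 and 0.72, and at 0.87, 0.23, 1.62 and 0.06. The order of the copies was not the same in each group: A minus B was -1.09, -1.04 and -0.33 on Fhl1 untreated arrays and 0.21, 1.23, 0.46, -0.15 and 0.56 on Fhl1 rapamycin arrays. Over the 12 arrays it was -0.07 ± 0.90 (exact sign-flip test, adjusted p = 0.818), with the A copy higher on 6.

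RPS25, whose protein is needed for translation from some internal entry sites, had the widest spread between arrays of the 16 pairs. RPS25B, divergent with NUP2, stood at 1.99, 1.21 and 1.04 with Fhl1 untreated, at 0.66, 1.39, -1.36, 2.29 and 1.27 with Fhl1 rapamycin and at 0.94, 0.61, 0.10 and 4.26 with Ifh1 untreated. The value of 4.26 on Ifh1 untreated replicate 4 was the highest of any member on any array. RPS25A, divergent with YGR027W-A, had group means of 0.68 ± 0.44, 0.40 ± 1.00 and 0.61 ± 0.31. The difference of -0.66 ± 1.67 did not pass (exact sign-flip test, n = 12, adjusted p = 0.279). Without Fhl1 rapamycin replicate 3, RPS25B was called in the mean of the 3 groups (limma, 1.43, adjusted p = 0.022, against 1.25 and 0.104 with it). It was also called without centring, with arrays scaled to one deviation, with arrays weighted and with clusters by absolute correlation as a block.

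The other pairs encode proteins outside the head. RPS24 encodes a body protein, and RPS24B was above RPS24A on 12 of 12 arrays. RPS24B stood at 1.73, 3.20 and 1.44 with Fhl1 untreated, at 2.14, 1.95, 1.47, 1.42 and 0.94 with Fhl1 rapamycin and at 1.68, 2.50, 1.55 and 1.88 with Ifh1 untreated. RPS24A stood at 1.34, 1.77 and 0.87, at 1.31, 0.93, 0.62, 0.91 and 0.17, and at 0.29, 0.66, 1.01 and 0.12. Only with Ifh1 untreated were the copies free of overlap. The difference was -0.99 ± 0.50 (n = 12; exact sign-flip test, adjusted p = 0.00315). Neither region is faced by another gene.

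RPS27 encodes a zinc-binding protein. RPS27B stood at 2.00, 2.90 and 1.77 with Fhl1 untreated, at 1.48, 0.98, 1.74, 1.44 and 1.15 with Fhl1 rapamycin and at 1.45, 2.10, 2.78 and 1.28 with Ifh1 untreated. RPS27A stood at 0.92, 0.18 and 1.20, at 0.73, 0.87, 0.30, 1.45 and 1.84, and at 0.43, 1.78, 0.02 and 1.09. The copies were apart with Fhl1 untreated and overlapped in the other groups. The difference was -0.85 ± 1.05 (n = 12; exact sign-flip test, adjusted p = 0.0215), and the call was lost with all 15 arrays (-0.56, adjusted p = 0.142).

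RPS9 encodes a protein that binds the small-subunit RNA early in assembly, and its A copy was low. RPS9A, divergent with MOT1, stood at 0.62, 0.41 and 0.34 with Fhl1 untreated, at 0.24, 0.20, -0.11, 0.23 and 0.47 with Fhl1 rapamycin and at -0.14, -0.09, 0.17 and -0.01 with Ifh1 untreated. RPS9B, divergent with NTC20, stood at 0.32, 1.76 and 0.52, at 1.02, 0.68, 1.49, 1.49 and 0.39, and at 0.48, -0.36, 1.66 and 0.49. RPS9A stayed near 0 with Ifh1 and varied little between arrays, while RPS9B ranged widely. The difference was -0.63 ± 0.68 (n = 12; exact sign-flip test, adjusted p = 0.0199), with RPS9B higher on 9 of 12 arrays.

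RPS4, RPS6, RPS7 and RPS30 were pairs whose copies were not called apart. The protein of RPS6 is phosphorylated in response to TOR complex 1. RPS6A stood at 2.12, 1.84 and 0.95 with Fhl1 untreated, at 1.77, 1.56, 2.22, 1.18 and 1.04 with Fhl1 rapamycin and at 2.66, 0.22, 2.52 and 1.27 with Ifh1 untreated. RPS6B stood at 1.56, 2.60 and 1.06, at 1.10, 1.79, 1.78, 2.52 and 0.51, and at 0.46, 2.03, 1.20 and 2.37. Both were high on most arrays, and with Ifh1 untreated RPS6A was the higher on replicates 1 and 3 and RPS6B on replicates 2 and 4. Replicates 1 and 3 were the ones turned over. As deposited, RPS6A lay below RPS6B on every Ifh1 untreated array, at -3.54, 0.18, -1.40 and 3.01 against -1.34, 2.00, -0.08 and 4.11. It also lay below on every Fhl1 rapamycin array, and above on every Fhl1 untreated array. Which copy was the higher with Ifh1 untreated thus followed the turning. Among the named pairs, the same held with Ifh1 untreated for RPS4, RPS25 and RPS29. As deposited, the A copy of RPS4 and of RPS25 lay below the B copy on each of those arrays. RPS29A lay above RPS29B on each of them. The mean difference for RPS6 was 0.03 ± 1.16 (n = 12; exact sign-flip test, adjusted p = 0.93), with large differences on single arrays.

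RPS4A, divergent with YJR146W, stood at 2.62, 1.32 and 0.97 with Fhl1 untreated, at 1.78, 2.14, 0.77, 1.00 and 1.42 with Fhl1 rapamycin and at 1.88, 0.83, 1.79 and 0.96 with Ifh1 untreated. RPS4B, divergent with MNL1, stood at 2.27, 2.15 and 0.77, at 2.04, 1.51, 1.64, 2.71 and 1.55, and at 0.96, 1.69, 1.08 and 1.10. Both copies of this pair, whose protein binds RNA in the body, were at least 0.77 on every one of the 12 arrays. Their difference was -0.17 ± 0.79 (exact sign-flip test, n = 12, adjusted p = 0.536). RPS7A, divergent with RKI1, had group means of 0.66 ± 0.76, 1.03 ± 0.37 and 0.83 ± 0.45 in the same order of groups, and RPS7B 1.44 ± 0.74, 1.11 ± 0.69 and 0.93 ± 0.29. The difference for RPS7 was -0.26 ± 0.71 (adjusted p = 0.292 in the same exact test). RPS30A had group means of 0.99 ± 0.84, 0.69 ± 0.39 and 1.05 ± 0.61, and RPS30B, divergent with FYV12, 0.58 ± 0.40, 1.11 ± 0.59 and 0.30 ± 0.37. The difference for RPS30 was 0.18 ± 0.85 (adjusted p = 0.536 in the same exact test). A p above the threshold does not show that the copies are equal, and the SDs over arrays exceed these differences.

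RPS21, for a small protein of the subunit's surface, had the largest difference of the 16 pairs. RPS21B, divergent with LCB3, stood at 2.76, 2.93 and 1.98 with Fhl1 untreated, at 1.74, 1.75, 1.34, 1.65 and 1.74 with Fhl1 rapamycin and at 2.57, 1.95, 0.92 and 1.50 with Ifh1 untreated. RPS21A, faced by no other gene, stood at -0.88, -0.17 and 0.75, at 0.40, 0.66, 0.82, 0.49 and 0.40, and at 0.60, -1.53, 0.63 and -0.11. No array of RPS21A reached the lowest of RPS21B. The difference was -1.73 ± 1.11 (n = 12; exact sign-flip test, adjusted p = 0.00315). Between the frames that bound the RPS21B region, 1 systematic number was skipped in the gene table, as for RPS25B. The group means of the difference were -2.66 with Fhl1 untreated, -1.09 with Fhl1 rapamycin and -1.84 with Ifh1 untreated.

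RPS26 encodes a protein at the exit of the messenger RNA channel. RPS26A stood at 2.26, 2.09 and 0.73 with Fhl1 untreated, at 1.35, 1.89, 2.18, 2.16 and 1.07 with Fhl1 rapamycin and at 0.83, 1.70, 0.33 and 0.73 with Ifh1 untreated. RPS26B, divergent with COM2, stood at 1.62, 0.23 and 0.82, at 0.83, 1.28, -0.78, 1.54 and 0.57, and at -0.08, 0.99, 0.47 and 1.01. The ranges overlapped in every group. RPS26A was higher by 0.74 ± 0.90 (n = 12; exact sign-flip test, adjusted p = 0.0102), on 9 of 12 arrays, and the call was lost with all 15 arrays (0.47, adjusted p = 0.132).

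No change of Fhl1 with rapamycin passed the test at these regions. limma called 0 members between Fhl1 rapamycin and untreated arrays (0% of all regions), with 3 at an unadjusted p under 0.05, each lower, beside 243 of all 6803 regions. These were RPS29B (-0.97, SE 0.45), RPS21B (-0.92, SE 0.37) and RPS27B (-0.87, SE 0.40). RPS21B lay at 2.56 ± 0.51 without and 1.64 ± 0.18 with the drug (limma, adjusted p = 0.999). The median difference over members was -0.08, with 18 lower and 14 higher, beside 0.01 over all regions. The array median of the members differed by -0.13, and by -0.31 and -0.16 within the 2 array clusters that held both conditions. Within the clusters by signed correlation it differed by -0.29 and 0.19. In simulated data this fit found 11% of changes of 1 log2 unit and 73% of changes of 2.

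Between Ifh1 and Fhl1 in untreated cells no member passed either. limma called 0 members (0% of all regions), with 2 at an unadjusted p under 0.05, RPS24A (-0.80, SE 0.34) and RPS21B (-0.83, SE 0.39), beside 281 of all 6803 regions. The median difference of Ifh1 minus Fhl1 was -0.27, with 22 members lower and 10 higher, beside a median of -0.004 over all regions. In the 2 array clusters that held both proteins the member median differed by -0.75 (1 array of each) and -0.10, against -0.33 over all arrays. In the cluster by signed correlation that held both it differed by -0.53. On simulated data the fit of this contrast found 2% of changes of 1 log2 unit and 62% of changes of 2.

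With Ifh1, nearly all members were lower on the rapamycin arrays, though no member passed by itself. RPS24B, at 1.68, 2.50, 1.55 and 1.88 untreated, stood at -1.32, -0.27 and 0.22 with the drug (-2.36, SE 0.47; limma, adjusted p = 0.221). RPS27B stood at 1.90 ± 0.68 untreated and -0.07 ± 0.65 with the drug. RPS19B stood at 1.81 ± 0.58 and -0.05 ± 0.44, and RPS21B at 1.73 ± 0.70 and 0.03 ± 0.44. The arrays of these members did not overlap between the conditions. Over all members the median difference was -0.88, with 30 lower, beside 0.01 over all regions, and 12 members had an unadjusted p under 0.05, beside 411 of all 6803 regions. limma called 0 members, and 0.0147% of all regions in either direction. On simulated data the fit of this contrast found 7% of changes of 1 log2 unit and 60% of changes of 2. For 13 of the 32 members every rapamycin array lay below every untreated array, against 4.68% of all regions and 37 of the 101 other RP regions. These were RPS4A, RPS7A, RPS7B, RPS10A, RPS18A, RPS18B, RPS19A, RPS19B, RPS21B, RPS24A, RPS24B, RPS26A and RPS27B.

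The turning bears on this comparison, since it made the RP regions positive on the untreated arrays while the rapamycin arrays had almost no RP shift to turn by. Over all 8 ways of turning the 3 rapamycin arrays, the median difference of the members was -1.06 to -0.70 and 10 to 14 members did not overlap. The member median itself stayed between -0.10 and 0.10 on average. Within the 2 array clusters that held both conditions it differed by -0.75 (1 array of each) and -0.88, against -0.82 over all arrays.

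With the drug present in both, Ifh1 also lay below Fhl1. RPS10A, at 2.35, 2.23, 2.21, 1.43 and 1.26 with Fhl1, stood at -1.58, 0.59 and 0.17 with Ifh1 (-2.17, SE 0.44; limma, adjusted p = 0.0821). RPS26A stood at -0.83, -0.07 and -0.28 with Ifh1 (-2.13, SE 0.42; limma, adjusted p = 0.0764), below each of its Fhl1 arrays. limma called 0 members and 0.0735% of all regions, and the 5 regions called all face other RP genes. With the Ifh1 rapamycin arrays turned in other ways, it called 0 to 4 members. An unadjusted p under 0.05 was seen for 18 members, beside 59 of the 101 other RP regions and 375 of all 6803 regions. The median difference was -0.95, with 31 members lower and RPS29B higher by 0.28, beside -0.001 over all regions. For 17 members no Ifh1 array reached the lowest Fhl1 array, against 2.71% of all regions and 43 of 101 other RP regions. Over the 8 ways of turning, this count ran from 12 to 18. Within the 2 array clusters that held both proteins the member median differed by -1.19 and -0.82. On simulated data the fit of this contrast found 6% of changes of 1 log2 unit and 62% of changes of 2.

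On the Ifh1 rapamycin arrays 3 pairs with large differences elsewhere gave the following. A minus B was 0.34, -1.18 and -0.44 for RPS21, 0.21, -1.32 and 0.35 for RPS19, and -1.76, 0.05 and 0.20 for RPS10. The signs, and with them which copy was the higher on how many arrays, depend on how these arrays were turned. Whether the drug moved Ifh1 more than Fhl1 was fitted as an interaction, and 0 members were called, with 6 at an unadjusted p under 0.05 and a median of -0.77. Over all regions 297 of 6803 had such a p, with a median of -0.009, and 20 of the 101 other RP regions did, with a median of -0.72.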

How the data were processed

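The deposited values were log2 ratios of 6803 regions on 15 arrays. As powers of 2, 100% of them were ratios with 3 decimals (tolerance 0.002), against 1.12% as powers of e. Arrays were scanned with GenePix Pro 4.0, per the labels. No source used here gives the background correction, the normalisation or the ratio's direction. The deposited arrays had medians of -1.31 to 1.74, and 9 values were missing, none at members.

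Each array was centred on its median and turned as described above. limma 3.58.1 (R 4.3.3; lmFit, eBayes) fitted 4 group means to all arrays, adjusted over all regions. Pairs were tested in Python 3.11.15. The fits were tested on simulated data, drawn as independent normal values with each region's own residual SD. In them, 100 regions were changed by each size. They held no array clusters and no turning, so the recovery figures do not cover these. Gene order came from NCBI's R64 table, which matched 5307 of 5574 frames. It gives no coordinates for the array, whose build is not given. How regions were assigned to genes was refined after the data were opened. This changed the lists of other RP regions, but not the 32 members. Members, lists and tests were chosen with earlier results of these data known. Replicate numbers, from the titles, were not taken as pairs, since no same-numbered arrays correlated above 0.1 after turning. These correlations reached -0.23, and their sign is not settled where they involve Ifh1 rapamycin arrays. The text gives in full, among the pairs it names, the 5 highest and 5 lowest members, every called pair and the 3 largest and 3 smallest differences. Array clusters by signed correlation, and a dye term, were added after seeing the data. The values of 2 of the 16 pairs enter every count and median but are not reported here.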

Additional observations from a re-analysis of the deposited data

Results flagged for a closer look

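Among 64 sets of a member's values in groups of 4 or 5 arrays, 2 had 1 array far from the others, and chance alone flags about 1 in 20. Both came from Fhl1 rapamycin replicate 3. RPS21B stood there at 1.34, with the 4 other arrays between 1.65 and 1.75. RPS30B stood at 2.12, with the others between 0.65 and 1.01. The cause was not tested.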

How the results depend on the processing

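Numbers of called members are given in the order Fhl1 untreated, Fhl1 rapamycin, Ifh1 untreated and the mean of these 3 groups (9, 15, 5 and 21 as reported). With no array turned they were 0, 0, 0 and 0, and 0 pairs were called. Without centring the first 3 counts were 0, 0 and 0. With only the arrays of the group in the fit, Fhl1 untreated and Ifh1 untreated had 0 each. With clusters by absolute correlation as a block the counts were 1, 0, 3 and 7. With clusters by signed correlation, added after seeing the data, Ifh1 untreated had 3. Among the 16 regions faced by no other gene, Fhl1 rapamycin had 9 and the mean 12. Of the 5 pairs made of such regions 4 were called, with r = -0.80 between the copies. For Ifh1 minus Fhl1 with rapamycin, 1 member was called with arrays scaled to one deviation, and 1, 1, 2, 4, 1 and 1 when Ifh1 rapamycin arrays 1, 2, 3, 1 and 3, 2 and 3, or all 3 were turned over. Leaving out each array in turn gave 1 to 11, 9 to 15, 2 to 6 and 19 to 24 members, 0 each time with Ifh1 rapamycin and in the 3 other contrasts, and 0 to 1 for Ifh1 minus Fhl1 with rapamycin. It gave 9 to 10 pairs, a correlation between copies of -0.23 to -0.18 and an interquartile range of 0.89 to 1.04. A fit with the replicate number as a block called 0 members in each of the 4 contrasts.

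With no array turned, opposite signs were averaged, and some means of the 3 groups changed side. Among the members named here they were RPS4A -0.18, RPS4B -0.077, RPS6A -0.54, RPS7B -0.20, RPS9B -0.43, RPS10A -0.31, RPS18A -0.063, RPS18B -0.24, RPS19B -0.31, RPS21B -0.34, RPS24A -0.21, RPS24B -0.31, RPS27B -0.50 and RPS30B -0.37. Among the named pairs, the A minus B differences that changed side were RPS9 0.35, RPS10 -0.22, RPS18 0.13, RPS19 0.34, RPS24 0.071, RPS26 -0.35 and RPS27 0.57.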
